A study of Homo sapiens with 8 samples.

Results

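The genes described here encode the potassium, TRP, calcium and chloride channels and the mechanosensitive and store-operated channels of a human podocyte line, and were chosen by their gene symbols alone (the KCN, TRPC, TRPM, TRPV, CLCN, ANO, PIEZO, SCN and CACN families, ORAI and STIM). They filled 183 of the 29004 loci of the deposited gene table. RNA sequencing covered 4 LATS2 OE samples and 4 untreated samples of a single inducible line. It was derived from AB8/13, immortalized podocytes of human origin grown here at 33 °C, and in it a lentiviral vector carries wild-type LATS2 under a doxycycline-inducible promoter. LATS2 is a kinase of the Hippo pathway that phosphorylates the transcriptional coactivators YAP and TAZ. LATS2 OE samples received 125 ng/mL doxycycline for 8 h, and untreated samples carried the same vector without the drug, so that effects of the kinase and of doxycycline itself cannot be told apart. The comparison asks which channel transcripts differed after short induction of the kinase.

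The table gives 1 pooled FPKM value (fragments scaled for transcript length and for mapped fragments in total) per group and none per sample. No SD, standard error or test could therefore be computed, and whether a difference exceeds the spread between samples is not known. A gene is said to have risen or fallen here when its LATS2 OE to untreated ratio passed 1.5-fold in a locus of at least 1 FPKM in 1 or both groups. The decimal point was intact in cells below 1 FPKM but lost from cells between 1 and 1000 FPKM. Whether a gene lay below 1 FPKM was always known, while the level of a gene above it was known only up to a factor of 10 or 100, so the lowest level its digits allow is given. Ratios were read as the power of 10 nearest to no change, which holds for a true difference under 3.16-fold in either direction. For LATS2 itself the digits allow LATS2 OE to untreated ratios of 0.0201, 0.201, 2.01, 20.1 and 201, the value nearest to no change being 2.01-fold, and they do not by themselves settle the direction.

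Podocytes are the epithelial cells whose interlocking foot processes cover the glomerular capillaries, where they bear pulsatile stretch. Ca2+ entry through TRPC channels acts on their actin cytoskeleton, and inherited mutations of TRPC6 cause focal segmental glomerulosclerosis. Potassium channels set the membrane potential that drives such Ca2+ entry, STIM proteins open ORAI pores at the plasma membrane when the endoplasmic reticulum is depleted of Ca2+, and several CLC proteins serve the acidification of endosomes and lysosomes. Of 12 podocyte markers, 6 reached 1 FPKM in these cells: VIM, SYNPO, PODXL, CD2AP, ACTN4 and PLA2R1. The defining marker NPHS1 was nearly absent (0.00875 FPKM untreated and 0.00616 FPKM in LATS2 OE), and WT1 stood at 0.413 and 0.412 FPKM. Of the markers of other cells, 0 of 6 endothelial, 2 of 5 mesangial and stromal, 1 of 6 tubular and 1 of 5 leukocyte genes reached 1 FPKM.

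Among all 183 channel loci, 46 had at least 1 FPKM in 1 or both groups, 35 reached 0.1 FPKM but not 1 FPKM, 77 lay above 0 but below 0.1 FPKM, and 25 were at 0 in both groups. The share of at least 1 FPKM was thus 25.1%, against 45.6% of all named loci in the table. Very low but non-zero values were common, with 42.1% of channel loci above 0 and below 0.1 FPKM against 17.8% of named loci.

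Families differed in how many members were transcribed. All 5 genes of store-operated entry (ORAI1, ORAI2, ORAI3, STIM1, STIM2) reached 1 FPKM, as did 6 of 10 anoctamins, the family of Ca2+-activated chloride channels and lipid scramblases, and 6 of 9 CLC loci, namely CLCN2 to CLCN7. Among potassium channels the counts were lower, with 5 of 40 voltage-gated, 2 of 15 K2P (background potassium channels whose subunits carry a tandem of pore domains), 1 of 15 inward rectifier, 2 of 8 Ca2+- or Na+-activated pore subunits and 5 of 16 auxiliary subunits at 1 FPKM or more. Of the 8 KCNA genes, 7 were at 0 in both groups and only KCNA7 passed 1 FPKM. In the TRP families 3 of 7 TRPC, 2 of 8 TRPM and 1 of 6 TRPV loci did so.

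The voltage-gated calcium channels split by role. None of the 10 pore-forming CACNA1 loci reached 0.1 FPKM, the highest being CACNA1A at 0.0546 FPKM untreated and 0.0620 FPKM in LATS2 OE. The L-type pore genes CACNA1C (0 and 0.000759 FPKM) and CACNA1D (0.0229 and 0.0323 FPKM) were close to 0. Auxiliary subunits were present, with 5 of 17 loci at 1 FPKM or more: CACNB1, CACNB2, CACNB3, CACNA2D1 and CACNG8. Locus numbers run over the plus strand of a chromosome and then over its minus strand. By its number the CACNB2 locus counted here falls in the minus-strand run, whereas CACNB2 is annotated on the plus strand. For the sodium channels, 1 of 11 alpha subunit loci, at SCN8A, and 1 of 4 beta subunit loci passed that level.

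**Figure D1:**
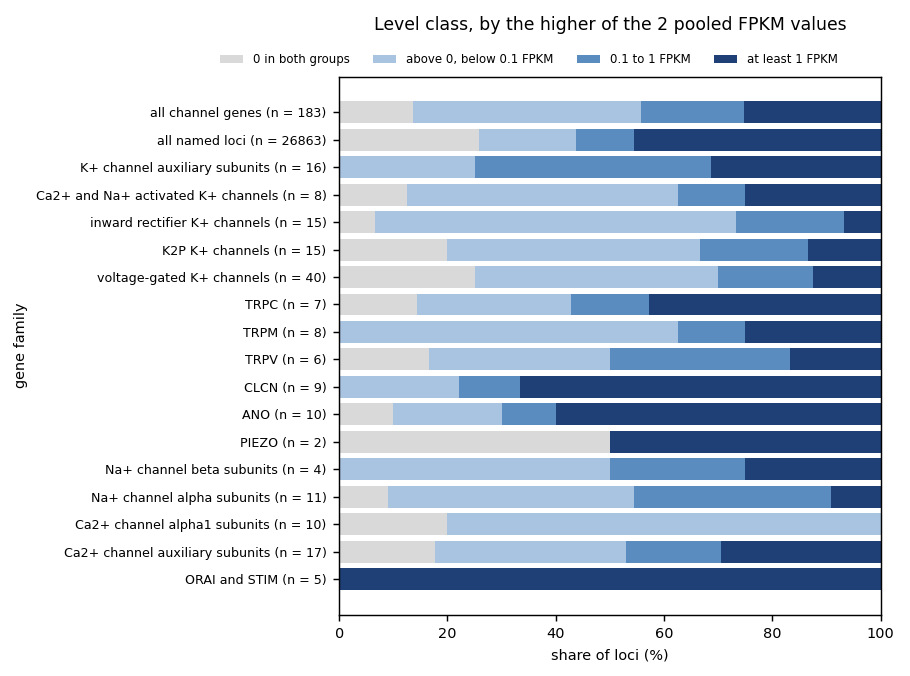
Share of loci in each level class, in percent of the loci in each channel family (rows, with the number of loci), for all 183 channel loci and for all named loci of the table. Every ORAI and STIM locus lies at 1 FPKM or more and no pore-forming calcium channel locus reaches 0.1 FPKM.

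At the 1.5-fold threshold 1 of 46 channel genes of at least 1 FPKM rose and 1 fell, and none had a 2-fold ratio by the reading nearest to no change. For 44 of the 46 the decimal point was lost, so no ratio above 3.16-fold could be read. The shares over all 12556 loci of this level were 1.73% for rises, 2.19% for falls and 3.92% for either direction, and 1.19% for a 2-fold change in either direction. The channel genes' combined share of 4.35% was therefore near that background.

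KCNN4 was the gene that rose. It encodes KCa3.1, the intermediate-conductance Ca2+-activated potassium channel that calmodulin gates. Its locus lies at chr19:44270685-44285561 (hg19, annotated on the minus strand), and the annotated gene overlaps no other protein-coding or long noncoding RNA gene. Its value was 7.35 FPKM in untreated and 11.8 FPKM in LATS2 OE cells at the lower of 2 possible levels, a 1.60-fold higher level with a log2 ratio of 0.68. The pore gene of the large-conductance Ca2+-activated channel, KCNMA1 (BK), had 1.52 and 1.67 FPKM at its lowest reading and a log2 ratio of 0.13, and its accessory subunit KCNMB4 had 1.38 and 1.75 FPKM and 0.34. Neither passed the threshold, and the other 3 KCNN genes lay below 0.1 FPKM in both groups.

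TRPC4 was the gene that fell. It encodes a receptor-operated, non-selective cation channel subunit that can join with TRPC1. Its locus lies at chr13:38210773-38443939 (hg19, annotated on the minus strand), and the annotated gene overlaps no other protein-coding or long noncoding RNA gene. The lower of its 2 possible levels was 12.7 FPKM in untreated and 8.24 FPKM in LATS2 OE cells, a 1.54-fold lower level with a log2 ratio of -0.63. TRPC1 was nearly level between the groups at 9.22 and 9.30 FPKM (lowest reading, log2 ratio 0.01).

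The nearest value outside the threshold for a fall was that of KCNK2. It encodes TREK-1, a K2P channel opened by membrane stretch, and had 2.17 FPKM in untreated and 1.48 FPKM in LATS2 OE cells at its lowest reading, which is 1.47-fold lower.

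The promoters of KCNN4, TRPC4 and KCNK2 are printed because these genes had the highest ratio and the 2 lowest ratios among the 46. They run from 250 bases before to 50 bases after the start site, 5′ to 3′ on the gene's strand, from RefSeq on GRCh38.p14. Capitals mark GGAATG, the core motif bound by TEAD factors, the DNA-binding partners of YAP and TAZ.

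KCNN4, chr19:43780924-43781223, minus strand: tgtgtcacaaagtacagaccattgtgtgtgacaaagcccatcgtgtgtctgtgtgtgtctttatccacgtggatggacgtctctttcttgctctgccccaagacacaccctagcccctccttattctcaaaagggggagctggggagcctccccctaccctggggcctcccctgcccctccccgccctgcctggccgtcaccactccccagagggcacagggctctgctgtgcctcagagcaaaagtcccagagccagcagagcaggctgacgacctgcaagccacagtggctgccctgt
TRPC4, chr13:37869723-37870022, minus strand: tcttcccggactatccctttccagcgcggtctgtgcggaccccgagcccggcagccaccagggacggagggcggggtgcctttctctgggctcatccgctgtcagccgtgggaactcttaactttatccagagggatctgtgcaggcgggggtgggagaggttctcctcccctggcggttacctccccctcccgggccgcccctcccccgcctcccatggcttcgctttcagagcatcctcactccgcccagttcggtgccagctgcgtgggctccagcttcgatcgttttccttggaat
KCNK2, chr1:215005292-215005591, plus strand: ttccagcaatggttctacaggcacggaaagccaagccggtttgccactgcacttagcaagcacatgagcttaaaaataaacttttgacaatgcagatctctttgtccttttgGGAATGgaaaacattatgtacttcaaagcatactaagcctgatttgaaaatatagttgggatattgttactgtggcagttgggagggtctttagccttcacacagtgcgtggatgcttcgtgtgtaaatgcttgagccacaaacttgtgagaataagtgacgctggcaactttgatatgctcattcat

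The KCNK2 window held 1 GGAATG, starting 138 bases before the start site, and those of KCNN4 and TRPC4 held none on either strand. The TRPC4 window ends in ggaat, and the base after it was not examined. None of the 3 held TGANTCA, the AP-1 core. Of 46 channel genes of at least 1 FPKM, 38 had a promoter in the RefSeq table, and GGAATG occurred in 3 of these (7.89%), those of KCNK2, KCNK6 and KCNQ5, against 11.1% of 9331 promoters of all genes at that level and 14.0% of all 27305 promoters of this length. TGANTCA occurred in 0 of the 38, against 4.37% and 7.76%. A match of letters is a description and not a binding site.

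Past a lower threshold of 1.2-fold, 11 of the 46 genes had a higher ratio and 5 a lower one. These are 23.9% and 10.9%, beside 7.06% and 7.18% of all loci of this level. Among the 11 were KCNN4, CACNB2 (at the locus numbered with the minus strand), KCND1, CACNB3, KCNMB4, KCNA7, KCNK6, KCNS3, ANO9 and STIM1. The 5 were TRPC4, KCNK2, KCNH1, ANO2 and CACNG8. The median log2 ratio of the 46 was 0.06 (interquartile range -0.05 to 0.21), with 30 above 0 and 16 below, and that of all 12556 loci was -0.0037 (-0.08 to 0.07), with 48.7% above 0. The median size of the log2 ratio, whatever its sign, was 0.134 for the channel genes and 0.0760 for all loci. Ratios spread more widely at low levels and the levels of 44 of the 46 are known only up to a power of 10, so the channel genes could not be set beside loci of like level there. Among loci of 0.1 to 1 FPKM, whose levels are known, the median sizes were 0.295 for 35 channel loci and 0.286 for all 4600. Only 2869 loci of that class carry a gene name, as every channel locus does. No median was computed over named loci alone, so these medians do not settle whether level accounts for the wider spread.

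**Figure D2:**
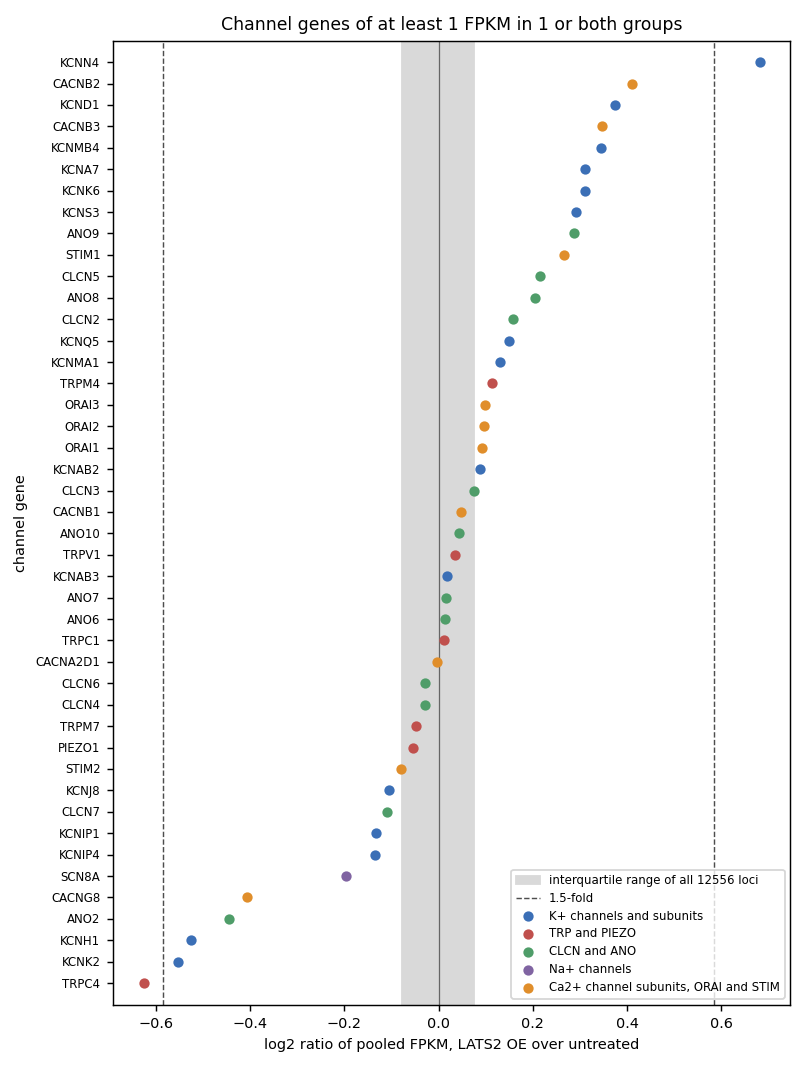
Log2 ratio of LATS2 OE to untreated pooled FPKM (horizontal axis) for 44 of the 46 channel genes of at least 1 FPKM, 1 point per gene and no error bars because the values are pooled. The ratios run from -0.63 (TRPC4) to 0.68 (KCNN4), and these are the only points beyond the dashed lines at 1.5-fold.

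**Figure D3:**
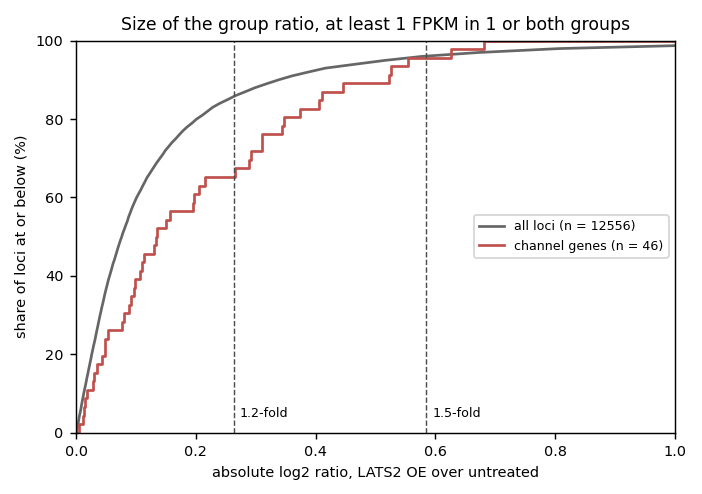
Cumulative percent of loci (vertical axis) by the size of the log2 ratio (horizontal axis) for the 46 channel genes and all 12556 loci of at least 1 FPKM. The curve of the channel genes lies to the right of the other below 1.5-fold, with medians of 0.134 and 0.0760, and the curves meet near 1.5-fold.

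Potassium channel genes of this level showed ratios on both sides. KCNH1, an ether-à-go-go channel, had 4.92 FPKM in untreated and 3.42 FPKM in LATS2 OE cells at its lowest reading (log2 ratio -0.53). Its locus is 1.76 times as long as the annotated gene, and whether the value includes neighbouring transcripts is not known. Of the 46 loci of this level, 8 were more than 1.5 times as long as the annotated gene. KCND1, which carries A-type current as Kv4.1, had 1.47 and 1.91 FPKM (0.37), KCNA7 had 1.52 and 1.88 FPKM (0.31), and KCNS3, a silent subunit that modifies other Kv channels, had 7.65 and 9.36 FPKM (0.29). KCNK6 (TWIK-2) had 4.10 and 5.08 FPKM (0.31). KCNIP1 and KCNIP4, Ca2+-binding partners of Kv4 channels, both had a log2 ratio of -0.13.

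The stretch-activated channel PIEZO1 had 5.84 FPKM untreated and 5.63 FPKM in LATS2 OE at the lower of 2 readings, a log2 ratio of -0.05, and PIEZO2 was at 0 in both groups. TRPM7, a channel fused to a kinase that conducts Mg2+ and Ca2+, had a log2 ratio of -0.05, and TRPM4, a Ca2+-activated monovalent cation channel, had 0.11. TRPV4, an osmo- and mechanosensitive channel, lay at 0.295 and 0.321 FPKM. TRPC6 and TRPC5, both studied in podocyte injury, were close to 0 in this line, with 0.00222 and 0.00358 FPKM for TRPC6 and 0.00169 and 0.000839 FPKM for TRPC5, levels too low for a ratio to be read.

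In store-operated entry the ER sensor STIM1 had the highest ratio, with 1.19 FPKM in untreated and 1.43 FPKM in LATS2 OE cells at its lowest reading and a log2 ratio of 0.27. Its paralogue STIM2 had -0.08. The pore genes ORAI1, ORAI2 and ORAI3 lay together at 0.09, 0.10 and 0.10. The ORAI3 locus also carries the name FBXL19, a neighbouring gene, so its value is shared between both.

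Among calcium channel auxiliary subunits, CACNB3 had 7.92 FPKM in untreated and 10.1 FPKM in LATS2 OE cells (log2 ratio 0.35). CACNB2 had 0.958 and 1.27 FPKM at 1 of its 2 loci (0.41). Both genes encode beta subunits that carry the pore to the plasma membrane. That CACNB2 locus is numbered with the minus strand and the gene is annotated on the plus strand, so whether it holds beta subunit transcripts is not known. A second CACNB2 locus over the same span, numbered with the plus strand, had 0.165 and 0.175 FPKM. CACNA2D1, an alpha2delta subunit, differed by -0.0039 on the log2 scale. CACNG8, better known as a partner of AMPA receptors, had 6.14 and 4.64 FPKM (-0.41).

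Of the chloride channel genes, the endosomal and lysosomal exchangers CLCN3, CLCN5 and CLCN7 had log2 ratios of 0.08, 0.22 and -0.11, and none of the 6 CLC genes of at least 1 FPKM passed 1.2-fold. In the anoctamins, ANO2, a Ca2+-activated chloride channel, had 2.11 and 1.55 FPKM (-0.45) and ANO9 had a log2 ratio of 0.29 at a locus shared with SIGIRR. ANO6, a scramblase and channel, had 0.01, and ANO1 was at 0 in both groups. The libraries did not keep strand. For 22 of the 46, the span of the annotated gene, introns included, overlaps a protein-coding or long noncoding RNA gene on the opposite strand. Reads from stretches where exons of both genes overlap cannot be told apart, and whether exons overlap was not examined. Overlaps of locus stretches beyond the annotated gene were not examined.

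At 0.1 to 1 FPKM the deposited values were intact, and both the level and the ratio are known. Of 35 channel loci in this class 5 (14.3%) had ratios of at least 1.5-fold upward and 2 (5.71%) downward. The shares were 13% and 9.74% of all 4600 loci of this class, with or without a gene name. The upward loci all encode potassium channel subunits. Potassium channel families also make up most loci of the class, with 7 auxiliary, 7 voltage-gated, 3 inward rectifier, 3 K2P and 1 Ca2+- or Na+-activated locus. KCNK3, the acid-sensitive K2P channel TASK-1, went from 0.182 FPKM untreated to 0.465 FPKM in LATS2 OE, 2.56-fold higher and the highest ratio of the class. KCNJ16 (Kir5.1, which pairs with Kir4.1 in kidney tubules) had 0.431 and 0.879 FPKM, 2.04-fold higher, and KCNJ15 (Kir4.2) had 0.253 and 0.401 FPKM, 1.59-fold higher. KCNV1, a silent Kv subunit, had 0.0789 and 0.165 FPKM, and KCNE3, a subunit that holds KCNQ1 open, had 0.310 and 0.558 FPKM, 1.80-fold higher. KCNQ1 itself lay at 0.0277 and 0.0209 FPKM.

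The 2 downward loci of the class were KCNV2, another silent Kv subunit, with 0.111 FPKM untreated and 0.0676 FPKM in LATS2 OE (log2 ratio -0.71), and 1 of the 2 SCN8A loci with 0.486 and 0.320 FPKM (-0.60). That SCN8A locus is numbered with the minus strand, whereas SCN8A is annotated on the plus strand. The other SCN8A locus, over the same span and numbered with the plus strand, had 2.63 and 2.29 FPKM at its lowest reading (-0.20). KCNH2 (hERG) had 0.130 and 0.0872 FPKM (-0.58). TRPC2, a pseudogene in humans, had 0.950 and 0.820 FPKM, and TRPM2 had 0.218 and 0.177 FPKM. The deposited table gives no counts, so the precision of these values could not be given.

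**Figure D4:**
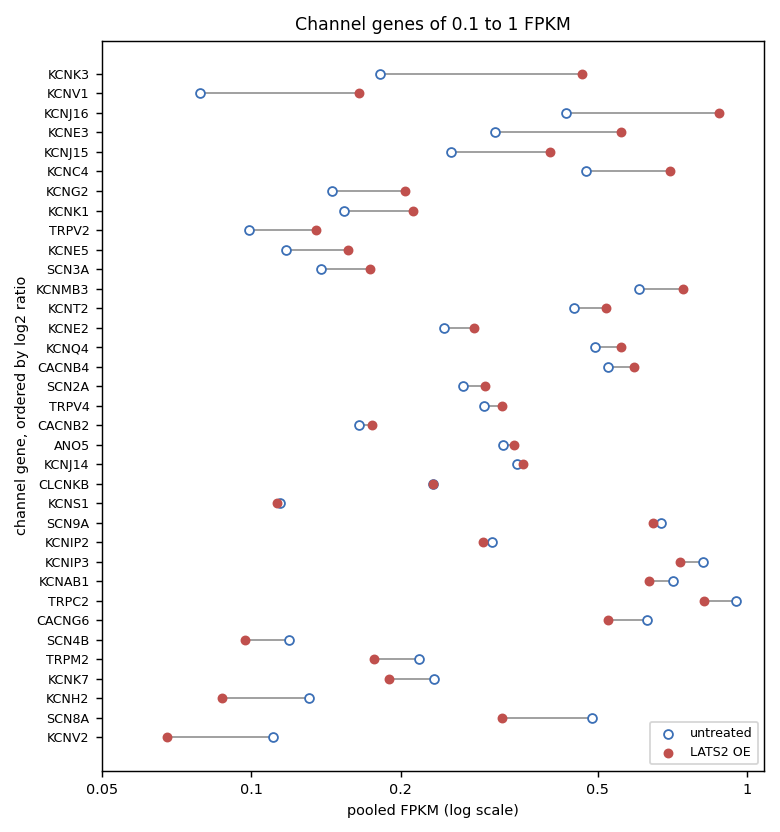
Pooled FPKM (horizontal log axis) in untreated and LATS2 OE cells for the 35 channel loci of 0.1 to 1 FPKM, 2 points per locus joined by a line and without error bars. KCNK3, from 0.182 to 0.465 FPKM, has the longest line, and KCNV2, from 0.111 to 0.0676 FPKM, the longest in the downward direction.

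Genes of ion transport outside these families, such as purinergic receptors, IP3 receptors, volume-regulated channels, calcium pumps and exchangers, were listed for comparison. The 77 genes found filled 84 loci, several of them CLIC1 loci at 0 in both groups, and 39 loci reached 1 FPKM. Of these 39, 1 rose and 0 fell past 1.5-fold, beside 1.73% and 2.19% of all loci of this level. Their median log2 ratio was 0.04. ATP2B4, the plasma membrane calcium pump PMCA4, was the one that rose, from 6.79 to 11.2 FPKM at its lowest reading (1.66-fold). At 1.2-fold 4 were higher and 3 lower, beside 7.06% and 7.18% of all loci of this level. The 3 were SLC8A1 (the Na+/Ca2+ exchanger NCX1, log2 ratio -0.52), NALCN (the sodium leak channel, -0.50) and BEST3 (-0.36).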

How the data were processed

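Poly(A) RNA of 4 LATS2 OE and 4 untreated AB8/13 samples was sequenced after unstranded library preparation. The submitters' processing notes name bcl2fastq, FastQC, Trimmomatic 0.33, TopHat, Cufflinks and hg19. For TopHat and Cufflinks the version, and for counting the annotation, was not given in the sources used here. In 1 gene-level table the authors deposited a pooled FPKM value per group, normalized for transcript length and mapped fragments, and 0 further columns of per-sample values. Its other columns hold the authors' own comparison (log2 ratio, statistic, p and q) and were not used. The depth per sample is unknown. Whether the 4 samples of a group were separate cultures is not stated in the labels. A test across samples had been planned for single-sample values and could not be made on pooled ones.

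Decimal points were put back by taking the ratio nearest to 1. The step was tried on simulated data, but recovery of ratios under 3.16-fold follows from the rule itself. The trial therefore cannot show that the true ratios lie under 3.16-fold. Of 1385 loci at 0.5 to 1 FPKM in untreated cells, where the cells below 1 are intact, 16 (1.16%) fell by more than 3.16-fold in the LATS2 OE group, and of 1391 at that level in LATS2 OE cells 10 (0.719%) were lower than that in untreated cells by the same factor. Members were chosen by symbol, and members, lists and named genes with earlier results of these data known. Named genes were LATS2, members past 1.5-fold or the 8 largest ratios in each direction at 1 FPKM or more and at 0.1 to 1 FPKM, and a set tied by textbook knowledge to podocytes, stretch or store-operated entry. Further members (CACNA1A, CACNB1, the second CACNB2 locus, KCNS3, KCNQ5 and the KCNA, CLC and ANO genes not in that set) were named after their values were seen. Results of a few genes are not reported here. Alternatives were other fold thresholds, level floors, pseudocounts, centring on the median of all loci and leaving out loci with several names. Python 3.11.15, pandas 2.3.3, numpy 2.4.6 and matplotlib 3.10.9 were used.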

Additional observations from a re-analysis of the deposited data

How the results depend on the processing

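No paired analysis was possible because the table holds 1 pooled value per group, and for the same reason no replicate could be left out. The counts of channel genes depended on the threshold and the floor. The rises, 1 at 1.5-fold and 1 FPKM, became 11 at 1.2-fold and 0 at 2-fold, 6 with a floor of 0.1 FPKM, 21 with no floor and 5 with only intact values. The falls, also 1, became 5, 0, 3, 14 and 2 under these settings. The channel loci counted were 46 at 1 FPKM, 81 with the floor of 0.1 FPKM and 145 with no floor. Shares over all loci were not computed for the floor of 0.1 FPKM, for no floor or for intact values. The counts under those settings are therefore no result about channel genes. The rise count of other ion transport genes (1) became 4 at 1.2-fold and 0 at 2-fold, and their fall count (0) became 3 at 1.2-fold. The rise and fall counts of channel genes stayed at 1 with a floor in both groups, with centring and with single-name loci, settings not run for the other ion transport genes. The medians were recomputed under the 3 other floors only: that of channel genes ran from 0.05 with the floor in both groups to 0.09 with the floor of 0.1 FPKM, and that of all loci from -0.0041 to 0.0064. Of the values of single named genes under the pseudocounts and centring, 75 stayed and 20 moved by more than 0.1 on the log2 scale. Centring subtracts the same median of -0.0037 from every log2 ratio, so it could move none. All 20 moved under pseudocounts, which were run only on named loci below 1 FPKM in both groups. With 0.1 FPKM added, log2 ratios became 1.00 for KCNK3, 0.88 for KCNJ16, 0.51 for KCNJ15, 0.56 for KCNV1 and 0.68 for KCNE3. They became -0.33 for KCNV2 and -0.48 for the lower SCN8A locus. The next nearest place of the decimal point was examined after the values were seen. It gives KCNN4 a log2 ratio of -2.64 and TRPC4 one of 2.70, and it turns the sign for 44 of the 46 channel genes of at least 1 FPKM, so those 44 directions rest on taking the ratio nearest to 1. The digits alone do not decide between these readings. Without counts or single samples, neither counting error nor spread could be given.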
